A study of Mus musculus with 8 samples.

Results

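Chromatin accessibility was compared between Lats1-CKO and WT luminal cells of PyMT mammary tumors by ATAC-seq, an assay in which the transposase Tn5 cuts and tags DNA that is not covered by nucleosomes or other proteins. The comparison used 4 of the 8 libraries of the series, BM1 and BM5 from WT luminal cells and BM3 and BM7 from Lats1-CKO luminal cells, which were chosen by their labels. Merging all overlapping or adjoining peaks of the 4 gave 126838 regions. A region was called lost when it had a peak in BM1 and BM5 and in neither BM3 nor BM7, and gained when it had a peak in BM7 and in neither BM1 nor BM5. Of the 126838 regions, 3894 were lost (3.07%) and 34316 were gained (27.1%). The rule thus fixes the peaks of a lost or gained region in the luminal libraries, and these are given as a description. A peak in BM3 was recorded for gained regions but not required, since BM3 held far fewer peaks than the others.

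All cells came from cell lines derived from MMTV-PyMT tumors of the FBV/N strain, in which the polyoma middle T oncogene drives tumors of the mammary epithelium. Lats1-CKO cells lacked Lats1 through a conditional deletion in the epithelium, and WT cells carried no such deletion. Cells were sorted as luminal by high EpCAM and high CD49f, a gate that also takes in luminal progenitors, then grown briefly in serum-containing medium before the assay. The basal-like libraries, WT BM2 and BM6 and Lats1-CKO BM4 and BM8, came from EpCAM-low, CD49f-high cells of the same lines and took no part in the definition of lost and gained regions. Nothing in the labels says whether the libraries of a group came from separate animals or lines, so the spread between them may be partly technical. The study describes fibroblasts, to a varying degree, in the Lats1-CKO cultures from which cells were sorted, and fibroblast markers are given with the gene lists. The labels give no age, and the paper's methods give none for the mice behind these lines.

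The 2 WT luminal libraries had 72685 (BM1) and 58783 (BM5) peaks. BM7 had 93467 and BM3 had 14753, so the Lats1-CKO libraries lay on either side of both WT libraries. The depth of each library is not known, because the lists give no reads, and a missing peak may mean closed chromatin or too few reads. Of the peaks of BM3, 56.4% lay within 1 kb of a transcription start site (TSS), against 29.4% in BM1, 27.2% in BM5 and 25.8% in BM7. Several comparisons that rest on counts of peaks are therefore also given with the 14753 highest-scoring peaks of every library. Counts of distal regions by gene or list, and of regions by window along the genome, are given with all peaks only. Scores are not normalized between libraries, and a score is given only as its percentile among the peaks of its own library.

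LATS1 is a kinase of the Hippo pathway that phosphorylates the coactivators YAP and TAZ and so keeps them from acting with TEAD factors in the nucleus. Luminal cells of the mammary gland line the ducts and express keratins 8 and 18, EpCAM and claudins, under factors such as ELF3, ELF5, GRHL2 and GATA3. Basal cells lie beneath them, express keratins 5 and 14 and contract through smooth muscle proteins. AP-1, a dimer of FOS and JUN proteins, binds at many enhancers of epithelial tumor cells, where it helps to keep chromatin open.

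The following sequences show lost and gained regions of high score and, last, a gained region near Sox9, the gene with the most gained distal regions. They are distal, that is over 1 kb from any TSS, overlap no annotated exon, and are the plus strand of GRCm38 as given by RefSeq. Capitals mark each match to the AP-1 motif TGANTCA, which reads the same on either strand apart from its central base. The 4 lost regions are those with the highest smaller percentile of BM1 and BM5, and the first 3 gained ones are those with the highest percentile in BM7 outside exons. Of the first, near Ext1, the central 300 bp are given, chr15:52948300-52948599, with no match. The second, chr15:73913737-73914001, lies outside annotated exons and protein-coding introns, 74.0 kb upstream of the TSS of Mroh5, and it holds 3 matches. BM1 had it at the percentile 94.3 and BM5 at 90.7, and of the basal-like libraries BM2 had it at 92.9, BM6 at 45.1, BM4 at 97.2 and BM8 not at all. The third shown, chr5:98430169-98430400, lies in an intron 100.8 kb downstream of the TSS of Cfap299, with 1 match. The last lost one, chr13:114962117-114962378, lies in an intron, 30.0 kb upstream of the TSS of Itga2, which encodes a collagen-binding integrin, and has none. The first gained region, shown by its central 300 bp, chr11:114031602-114031901, lies in an intron 34.0 kb downstream of the TSS of Sdk2. The gained region at chr2:13140741-13140929 lies in an intron with C1ql3 as the nearest TSS, 129 kb away. The gained region at chr11:106076439-106076609 lies 8.00 kb upstream of Map3k3. The last gained region, chr11:112987815-112988050, lies 206 kb downstream of the TSS of Sox9 and had the highest percentile in BM7, 94.0, among the gained distal regions nearest to that gene. None of the gained sequences shown holds a match.
lost, nearest TSS Ext1: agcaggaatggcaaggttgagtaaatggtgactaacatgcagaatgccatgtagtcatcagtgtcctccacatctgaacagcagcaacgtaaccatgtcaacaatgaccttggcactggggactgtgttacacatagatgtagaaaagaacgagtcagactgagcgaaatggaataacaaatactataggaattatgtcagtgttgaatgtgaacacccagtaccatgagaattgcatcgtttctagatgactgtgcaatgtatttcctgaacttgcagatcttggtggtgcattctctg
lost, nearest TSS Mroh5: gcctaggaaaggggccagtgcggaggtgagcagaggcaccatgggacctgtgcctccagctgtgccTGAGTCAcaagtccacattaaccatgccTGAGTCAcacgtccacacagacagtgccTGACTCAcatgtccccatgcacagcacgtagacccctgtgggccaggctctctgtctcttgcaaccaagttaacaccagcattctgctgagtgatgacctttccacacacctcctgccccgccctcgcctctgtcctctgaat
lost, nearest TSS Cfap299: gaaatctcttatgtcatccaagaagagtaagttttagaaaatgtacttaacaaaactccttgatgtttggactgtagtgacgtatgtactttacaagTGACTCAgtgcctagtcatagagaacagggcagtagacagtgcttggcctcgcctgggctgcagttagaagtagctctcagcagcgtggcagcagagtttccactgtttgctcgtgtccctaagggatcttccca
lost, nearest TSS Itga2: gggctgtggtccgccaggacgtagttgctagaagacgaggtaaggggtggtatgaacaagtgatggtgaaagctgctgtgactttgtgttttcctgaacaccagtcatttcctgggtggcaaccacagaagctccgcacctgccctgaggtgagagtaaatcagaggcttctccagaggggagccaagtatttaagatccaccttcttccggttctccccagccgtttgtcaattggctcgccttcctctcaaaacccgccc
gained, nearest TSS Sdk2: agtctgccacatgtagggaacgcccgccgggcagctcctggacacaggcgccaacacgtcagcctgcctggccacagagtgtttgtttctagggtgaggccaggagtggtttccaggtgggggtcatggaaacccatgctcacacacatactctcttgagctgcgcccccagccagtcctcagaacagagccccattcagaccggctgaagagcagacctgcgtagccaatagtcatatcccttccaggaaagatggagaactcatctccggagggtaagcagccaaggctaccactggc
gained, nearest TSS C1ql3: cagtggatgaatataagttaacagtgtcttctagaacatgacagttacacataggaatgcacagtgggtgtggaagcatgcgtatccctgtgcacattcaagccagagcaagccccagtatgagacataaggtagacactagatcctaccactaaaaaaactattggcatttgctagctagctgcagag
gained, nearest TSS Map3k3: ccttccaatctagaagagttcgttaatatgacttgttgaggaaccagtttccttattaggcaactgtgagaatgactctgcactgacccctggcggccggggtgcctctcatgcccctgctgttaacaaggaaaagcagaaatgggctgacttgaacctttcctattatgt
gained, nearest TSS Sox9: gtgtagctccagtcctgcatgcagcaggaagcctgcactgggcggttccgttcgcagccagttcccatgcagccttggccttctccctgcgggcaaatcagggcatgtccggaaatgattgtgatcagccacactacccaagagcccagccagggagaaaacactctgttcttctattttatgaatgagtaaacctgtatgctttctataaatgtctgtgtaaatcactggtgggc

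The number of lost and gained regions was set beside the other ways in which BM1, BM5 and BM7 can disagree, to give the spread between libraries. With all peaks, 4022 regions had a peak in both WT libraries and none in BM7, whereas 20552 had one in BM1 and BM7 and none in BM5, and 3840 in BM5 and BM7 and none in BM1. Regions with a peak in BM7 alone of the 3 numbered 34316, against 13449 in BM1 alone and 16047 in BM5 alone. Regions lost from BM7 were therefore no more numerous than those lacking in BM5, and about as numerous as those lacking in BM1. BM7 had the most regions of its own, and it also had the most peaks. Of its gained regions 142 also had a peak in BM3, which was 0.112% of all merged regions. A further 731 regions had a peak in BM3 alone of the 4.

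With equal numbers of peaks BM7 no longer had the most regions of its own. Among the 27064 regions formed by the 14753 highest-scoring peaks of each library, 1060 were lost and 3688 gained, and 569 of the gained regions had a peak in both BM3 and BM7. Regions of BM5 alone then numbered 4038 and those of BM1 alone 2818, on either side of the 3688 of BM7 alone. A pair of libraries and neither of the other two was seen in 1060 regions for the WT pair BM1 and BM5 and in 569 for the Lats1-CKO pair BM3 and BM7. The pairs of mixed genotype gave 1164 (BM1 and BM7), 967 (BM1 and BM3), 722 (BM5 and BM7) and 648 (BM5 and BM3). The WT pair thus lay below 1 pair of mixed genotype, and the Lats1-CKO pair had the fewest of the 6. At this size, 35.8% of the BM1 peaks had no peak of BM5, and 32.9% had none of BM7. Likewise 43.5% of the BM7 peaks had no peak of BM3, and 41.7% had none of BM5. Over all ordered pairs the share without a partner was from 35.3% to 43.5% within a genotype and from 32.8% to 45.0% between genotypes, so the 2 ranges overlapped.

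**Figure D1:**
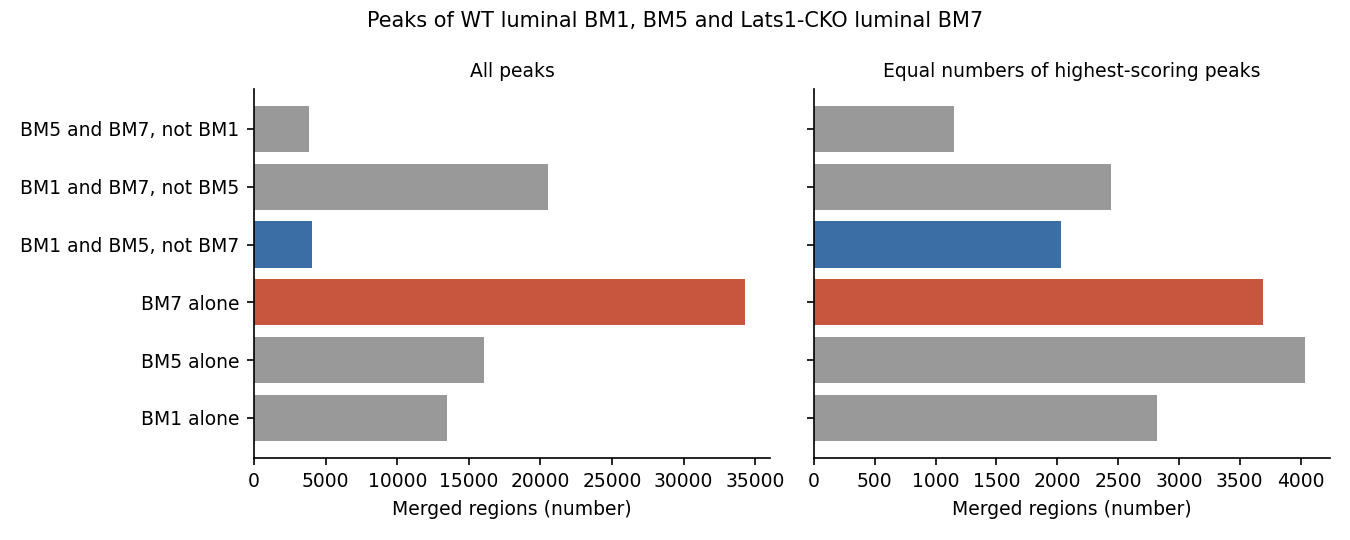
Number of merged regions (horizontal axis) with each pattern of peaks in the luminal libraries BM1 and BM5 of WT and the Lats1-CKO luminal library BM7, counted whether or not BM3 had a peak, for all peaks (left) and for the 14753 highest-scoring peaks of each library (right). Blue marks peaks in both WT libraries and not BM7, and red marks BM7 alone; BM7 alone leads on the left with 34316 regions and lies between BM1 and BM5 alone on the right.

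Lost and gained regions were mostly distal. Of the lost regions, 12.99% lay within 1 kb of a TSS (exact binomial 95% interval 11.95 to 14.09, counting error only), and of the gained regions 14.7% (14.3 to 15.1), against 22.4% of all merged regions. In the 33881 regions shared by BM1, BM5 and BM7 the share was 37.4%. Regions seen in BM5 alone had 9.29% near a TSS and those in BM1 alone 20.5%, so shares as low as those of the lost and gained regions also occurred between WT libraries. Lost regions lay in introns in 37.8% of cases and in exons in 3.57%, and gained regions in 40.2% and 3.95%. Gained regions were narrower, with a median of 114 bp against 162 bp for lost and 260 bp for shared regions, though regions of BM1 alone (102 bp) and BM5 alone (95 bp) were narrower still. They also came from the lower part of the BM7 list, with a median percentile of 26.2, whereas shared regions had 77.3 in BM7, and regions of BM1 alone and BM5 alone had 19.2 and 19.3 in their own lists. Lost regions had a median of 34.5 in BM1 and 48.2 in BM5. A second peak was close by in some cases, since 11.1% of lost regions had a BM7 peak within 500 bp, and 12.7% of gained regions had a peak of BM1 or BM5 within that distance.

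The AP-1 motif separated lost from gained regions by more percentage points than any other of the 13 motifs searched. It was found in the central 200 bp of 1881 of the 3388 lost distal regions (55.5%), of 5287 of the 29280 gained ones (18.1%) and of 28.7% of all 98385 distal regions. Distal regions shared by BM1, BM5 and BM7 had it in 41.3% of cases. No other pattern among BM1, BM5 and BM7 reached the share of the lost regions. The shares were 36.2% in BM1 alone, 22.1% in BM5 alone, 27.6% in BM1 and BM7 without BM5, and 29.1% in BM5 and BM7 without BM1. The 97 gained distal regions with a peak in BM3 had 18.6%. Near a TSS the order was the same at a lower level, with 28.7% of lost, 11.3% of gained and 11.4% of all regions. These are shares of regions, which are not replicates, and no test was made over them.

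Since a motif share does not need a region to be absent from a library, it could be compared library by library. Among the distal peaks of the 14753 highest-scoring peaks, the AP-1 share was 50.5% for BM1 and 52.4% for BM5 (WT), and 41.4% for BM3 and 38.6% for BM7 (Lats1-CKO). Both Lats1-CKO libraries lay below both WT libraries, and the gap between the genotypes was larger than that within either. For BM3, however, the 14753 peaks are its whole list, down to a score of 13. Those of BM1, BM5 and BM7 end at scores of 216, 81 and 255, which are not normalized between libraries. The part of the weaker peaks in the share of BM3 was not tested. WT libraries averaged 51.4% ± 1.32 (SD, n = 2) and Lats1-CKO libraries 39.99% ± 2.04 (SD, n = 2), which differ by -11.5 percentage points. A two-sided exact permutation test gave p = 0.333, below which that test cannot go for 2 libraries with 2, and such p-values measure only the spread between these libraries. With the same number of distal peaks, 6439, from each library the values were 51.5%, 54.2%, 41.4% and 39.8% in BM1, BM5, BM3 and BM7. With all peaks the order depended on BM3, whose short list held 41.4%, against 37.4% for BM1, 35.2% for BM5 and 27.8% for BM7, and the genotypes overlapped. In basal-like cells the same comparison gave 57.8% in BM2 and 43.5% in BM6 (WT), and 54.9% in BM4 and 42.4% in BM8 (Lats1-CKO), so that the groups overlapped, with a difference of -1.95 points (two-sided exact permutation test, p = 0.667). Whether the difference itself differed between luminal and basal-like cells was not tested. AP-1 was not the only motif without overlap between the luminal genotypes, and the others are given below.

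**Figure D2:**
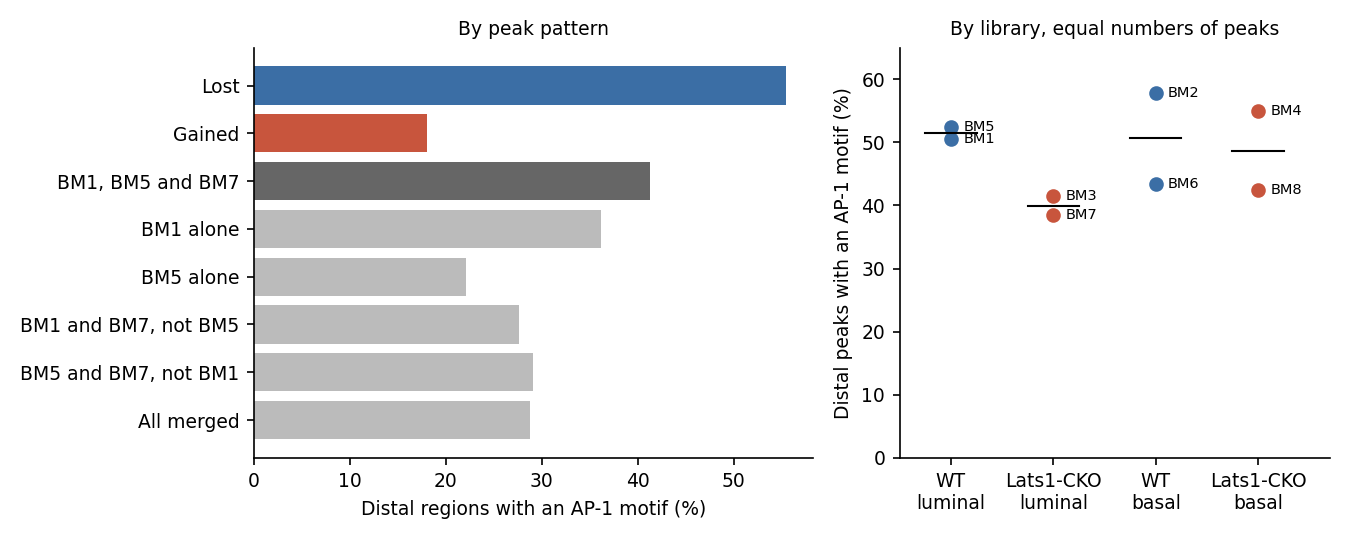
Share of distal regions (left, by pattern of peaks among BM1, BM5 and BM7) and of distal peaks (right, each point 1 library, the line the mean of 2) with the AP-1 motif TGANTCA in the central 200 bp, in percent. Lost regions reach 55.5% and gained regions 18.1%; among the 14753 highest-scoring peaks the WT luminal libraries lie above 50% and the Lats1-CKO luminal libraries at 41.4% and 38.6%, while the basal-like groups overlap.

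The same held among regions that stayed open. In the 21222 distal regions with a peak in BM1, BM5 and BM7, scores were ranked within each library, and a region was called lower in BM7 when its rank lay below both WT ranks by more than these differed from each other. By this rule 16.9% of the regions were lower in BM7 and 17.4% higher. AP-1 was found in 57.1% of those lower in BM7 and in 28.9% of those higher. The opposite order was seen for CTCF, the factor that bounds chromatin loops, whose motif was in 5.58% of the lower and 16.0% of the higher regions.

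Other motifs differed less. The E-box CAGGTG, a site of the repressors ZEB1 and SNAI1, was found in 23.7% of lost, 13.5% of gained and 16.6% of all distal regions. In equal numbers of peaks it was in 18.7% and 20.4% of the WT distal peaks (BM1, BM5) and in 18.6% and 14.7% of the Lats1-CKO ones (BM3, BM7). The Lats1-CKO values were below both WT values, but BM3 by less than the gap between BM1 and BM5. In basal-like cells the E-box share was 14.9% and 12.4% for WT (BM2, BM6) and 7.35% and 7.98% for Lats1-CKO (BM4, BM8), without overlap and -5.98 points apart (two-sided exact permutation test, p = 0.333). The motif AGATAA of GATA factors was found in 7.94% of lost and 4.63% of gained regions, with 8.99% in the regions of BM5 alone. TEAD (GGAATG), the motif of the factors through which YAP acts, was found in 19.1% of lost, 17.1% of gained and 16.7% of all distal regions. In equal numbers of peaks its mean was 19.1% ± 0.719 in WT and 18.9% ± 0.570 in Lats1-CKO (SD, n = 2 each), and the libraries overlapped. RUNX (TGTGGT) was in 21.1% of lost and 26.1% of gained regions, TFAP2 (GCCNNNGGC) in 6.55% and 9.10%, CTCF in 5.22% and 7.45%, ETS (AGGAAGT) in 7.23% and 7.18%, and FOX (TGTTTAC) in 3.66% and 3.09%. GRHL (AACCNGTT) was in 1.59% and 2.56% and the p53 family motif in 0.797% and 1.26%. The estrogen response element was in 7 lost and 8 gained distal regions, and NFI in 1 and 18. In equal numbers of peaks, the luminal groups did not overlap for ETS, E-box, CTCF and TFAP2, as for AP-1. Lats1-CKO minus WT was -0.854 points for ETS, -2.90 for E-box, 1.63 for CTCF and 1.01 for TFAP2. Each had p = 0.333 by the two-sided exact permutation test. The luminal groups overlapped for the other motifs searched. Lack of overlap alone therefore does not set AP-1 apart. All motifs were searched on both strands, and a match is not evidence that the factor was bound.

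Genes were then assigned by promoter peaks, that is peaks within 1 kb of any of their TSSs in GENCODE M21. Of 21755 protein-coding genes, a promoter peak was seen for 12561 and 11080 in WT (BM1, BM5) and for 7533 and 12896 in Lats1-CKO (BM3, BM7). A promoter was lost by the same rule for 139 genes (0.639%) and gained for 725 (3.33%), of which 7 also had a peak in BM3. Promoters with a peak in both WT libraries and not in BM7 numbered 156, fewer than the 1529 with one in BM1 and BM7 and not in BM5 and the 191 with one in BM5 and BM7 and not in BM1. The 725 of BM7 alone were more than the 425 of BM1 alone and the 282 of BM5 alone.

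The lost promoters with the highest scores were those of Creld1, Elmod1, Cxcl16 with Zmynd15, Pax6, Armcx1, Ifit2, Wdr72, Ankrd23 and Btg1-ps2, of which Cxcl16 and Zmynd15 share 1 promoter. Ifit2, an interferon-induced gene on chromosome 19, stood at the percentile 71.4 in BM1 and 89.7 in BM5. Its basal-like percentiles were 89.4 for BM2, 74.1 for BM6, 97.2 for BM4 and 14.6 for BM8, so the Lats1-CKO basal-like libraries did have this peak. Cxcl16, a membrane-bound chemokine on chromosome 11, had 85.1 in BM1 and 75.4 in BM5, with 67.3 in BM2, 18.7 in BM6, 15.1 in BM4 and none in BM8. Pax6, a developmental transcription factor on chromosome 2, had 72.8 and 90.8 in BM1 and BM5, and none in BM8. For Wdr72 no basal-like library of either genotype had a promoter peak.

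The gained promoters with the highest percentile in BM7 were those of Hspb8 (91.9), Cd300lb (90.3), Pecam1 (89.3), Crnn (88.8), Srrm4 (88.5), Prr7 (85.8), Chl1 (85.8), Tppp3 (85.3), Gprc5c (85.2) and Cdh19 (84.7). Srrm4, a splicing factor best known from neurons, was the 1 of these with a peak in BM3, at 46.0. Hspb8, a small heat shock protein, had a peak in 3 of the basal-like libraries, at 48.9 in BM2, 2.22 in BM6 and 10.3 in BM4. Cd300lb, a receptor of myeloid cells, had one in all 4, from 55.4 in BM6 to 99.9 in BM8, and so is not particular to Lats1-CKO luminal cells. Cdh19 and Chl1, adhesion molecules known from the nervous system, had a peak in BM8 alone of the basal-like libraries, at 87.9 and 78.4. The other 6 promoters gained in both BM3 and BM7 were those of Il2rb, Psmg1, Chic1, Bpifb4, Gm43517 and Acsm5, and their percentile in BM3 was between 5.31 (Acsm5) and 41.0 (Il2rb).

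Luminal genes kept their promoter peaks in BM7. Of 26 luminal genes, 24 and 22 had one in WT (BM1, BM5) and 14 and 23 in Lats1-CKO (BM3, BM7), and none was lost or gained. Epcam, which encodes the sorting marker, had a promoter peak in all 4 luminal libraries, from 65.02 in BM3 to 88.0 in BM1. Itga6, which encodes CD49f, stood at 96.1 and 48.2 in the WT libraries BM1 and BM5 and at 61.3 and 88.4 in BM3 and BM7. The sorted cells thus had open chromatin at the genes of both sorting markers. Lats1 itself (ENSMUSG00000040021, chromosome 10, 7681214 to 7716460) had a promoter peak at 57.6 in BM1, 62.4 in BM5 and 75.2 in BM7, and none in BM3. A peak at the promoter does not show whether the gene was deleted, since the labels do not give the deleted exons.

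Although the luminal promoters were open in BM7, they ranked lower there. For the 10451 protein-coding genes with a promoter peak in BM1, BM5 and BM7, the highest promoter score was ranked among these genes within each library, from 0 (lowest) to 100 (highest). A promoter was called lower or higher in BM7 when its rank lay outside both WT ranks by more than these differed, and 13.7% of all promoters were lower and 14.5% higher. The median shift of all promoters, BM7 minus the mean of BM1 and BM5, was 0.15. Of the 22 luminal genes among them, 6 were lower and 2 higher, and their median shift was -17.6, or -7.69 on the percentile scale of the whole library. The 6 were Cldn3, Cldn4, Elf3, Ovol1, Grhl2 and Tfap2c, and the 2 were Elf5 and Muc1. These genes, and those named from the ranks in the next paragraphs, were chosen after their values were seen.

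Cldn3, a tight junction claudin (chromosome 5, 134986214 to 134987472), ranked 61.6 in BM1, 50.1 in BM5 and 2.23 in BM7. Cldn4 ranked 52.3, 76.0 and 16.4 in the same order. Elf3, an ETS factor of luminal cells (chromosome 1, 135253575 to 135258568), ranked 52.0, 58.7 and 19.9. The 3 promoters were thus at rank 50 or above in both WT libraries and below rank 20 in BM7. Ovol1, a repressor of mesenchymal genes, ranked 42.6, 36.1 and 7.21, and Grhl2, an activator of junction genes, 27.2, 33.4 and 15.1. By contrast Elf5, a factor of luminal progenitors, ranked 26.5, 27.1 and 33.6, and Gata3, a factor of mature luminal cells, ranked 80.4, 56.1 and 84.3 and was called neither lower nor higher. The luminal list therefore did not move as 1 block.

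In the other Lats1-CKO library the median shift was weaker. Over the 14 luminal genes with a promoter peak in all 4 luminal libraries, ranked among the 7231 such genes, the median shift was -6.01 in BM3 and -16.6 in BM7, with 0.08 and -0.04 over all these genes. In BM3, 5 of the 14 lay below both WT ranks and 3 above both, against 35.1% and 35.9% of all genes. The number below both was thus near the share of all genes. Cldn3 itself ranked 57.2 in BM3, above its WT ranks of 47.0 and 37.3 in this smaller set, while Cldn4 ranked 7.54 against 35.8 and 67.5. Elf3 ranked 43.0 in BM3, between its WT ranks of 35.4 and 46.5. In equal numbers of peaks, 15 and 10 luminal genes had a promoter peak in BM1 and BM5, 14 in BM3 and 5 in BM7. By this count BM7 lay below both WT libraries and BM3 lay between them.

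Genes of epithelial cell adhesion, a list that shares Cdh1, Epcam, Esrp1 and 3 claudins with the luminal list, ranked lower in the same way. Of 20 genes, 20 and 18 had a promoter peak in WT (BM1, BM5) and 12 and 20 in Lats1-CKO (BM3, BM7), and none was lost or gained. Of the 18 ranked, 5 were lower in BM7 and 1 was higher, against 13.7% and 14.5% of all ranked promoters. The median shift of the 18 was -22.1 (-5.47 on the percentile scale of the whole library), and the 12 present in all 4 libraries had -11.5 in BM3. The 5 were Cldn3, Cldn4, Cgn, St14 and Tjp3. Cgn (cingulin), which links tight junctions to the cytoskeleton, ranked 47.2 in BM1, 30.4 in BM5 and 8.91 in BM7. St14, the membrane protease matriptase, ranked 65.3, 55.6 and 29.4. Tjp3, a scaffold of tight junctions, ranked 52.5, 30.4 and 6.95. Dsp (desmoplakin), of desmosomes, was the 1 higher gene, at 18.5, 22.2 and 27.002. Cdh1 (E-cadherin) ranked 54.3, 75.3 and 64.3, with BM7 between the WT libraries. In the basal-like libraries 18 and 15 of the 20 had a promoter peak in BM2 and BM6 (WT), and 7 and 10 in BM4 and BM8 (Lats1-CKO). With equal numbers of peaks in luminal cells, 14, 11, 12 and 4 had one in BM1, BM5, BM3 and BM7.

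**Figure D3:**
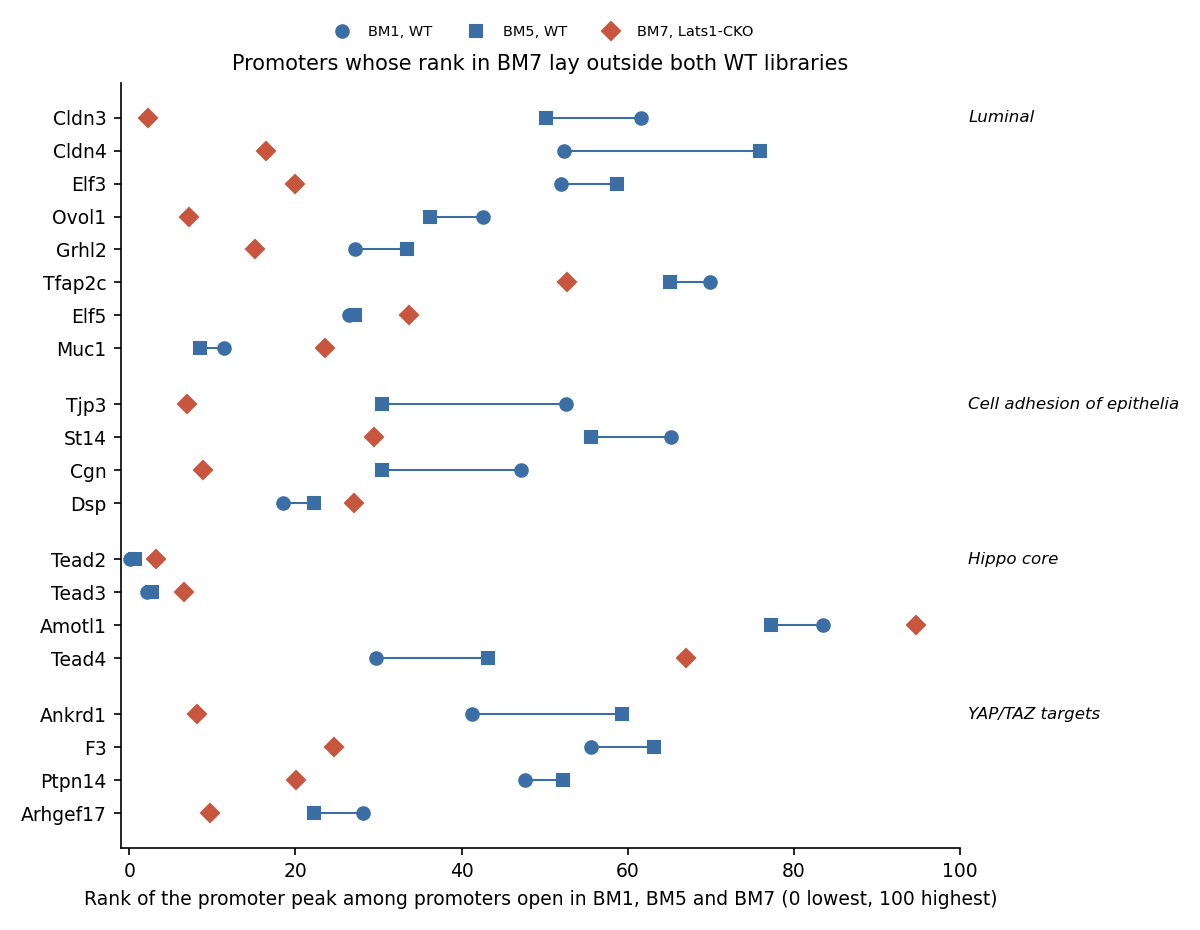
Rank of the promoter peak (horizontal axis, 0 lowest to 100 highest) among the 10451 protein-coding promoters open in BM1, BM5 and BM7, for the genes of 4 lists that were called lower or higher in BM7; adhesion genes that are also luminal genes are drawn once. Blue circles and squares are the WT libraries BM1 and BM5, joined by a line, and red diamonds are the Lats1-CKO library BM7; Cldn3 lies at 2.23 in BM7 and above 50 in both WT libraries, and Tead4 at 66.998 in BM7 and at 29.7 and 43.2 in the WT libraries.

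Hippo pathway genes had promoter peaks in nearly every luminal library. Of 21 genes, 21, 20 and 21 had one in BM1, BM5 and BM7 and 16 in BM3. Of the 20 ranked, 4 were higher in BM7 and none lower, against 14.5% and 13.7% of all ranked promoters, and 3 of the 4 encode TEAD factors. The fourth TEAD gene, Tead1, ranked 11.1, 38.3 and 21.7 and was called neither. Tead4 ranked 29.7 in BM1, 43.2 in BM5 and 66.998 in BM7. In the set present in all 4 libraries it ranked 14.1 and 29.9 in WT (BM1, BM5) and 40.2 and 55.2 in Lats1-CKO (BM3, BM7), so both Lats1-CKO libraries lay above both WT libraries. Tead2 (0.014, 0.65 and 3.25) and Tead3 (2.18, 2.76 and 6.59) were near the bottom of the ranking in every library, and the angiomotin gene Amotl1 near its top (83.5, 77.3 and 94.7), though in BM3 the Amotl1 promoter had a percentile of 13.9. The median shift of the list was -2.82 in these ranks and 3.95 on the percentile scale of the whole library, so no direction is given for the list.

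Of 18 targets of YAP and TAZ, 16, 15, 10 and 16 had a promoter peak in BM1, BM5, BM3 and BM7. Edn1, which encodes endothelin, was lost, with 65.5 in BM1 and 53.2 in BM5, and Axl, a receptor tyrosine kinase, was gained, with 68.9 in BM7. Over all protein-coding promoters, 0.639% were lost and 3.33% gained. Axl had a promoter peak in all 4 basal-like libraries too, from 29.3 in BM2 to 79.2 in BM6. Of the 14 ranked, 4 were lower in BM7 (Ankrd1, F3, Ptpn14 and Arhgef17) and none higher, against 13.7% and 14.5% of all ranked promoters, with a median shift of -10.1. That median was -0.63 with a TSS window of 5 kb, and in BM3 it was 9.79 over 10 genes, of the opposite sign. Ankrd1 ranked 41.2 in BM1, 59.3 in BM5 and 8.12 in BM7 and had no peak in BM3. The classical targets Ccn1 and Ccn2 ranked 18.5, 62.7 and 40.7, and 3.91, 16.8 and 27.2, and were called neither. The promoters of this list therefore showed no shift common to both Lats1-CKO libraries.

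Promoters of basal-like genes were gained in 3 cases and lost in 1, against 3.33% and 0.639% of all protein-coding promoters. Of 18 genes, 12, 10, 8 and 14 had a promoter peak in BM1, BM5, BM3 and BM7. Oxtr, Krt17 and Krt5 were gained, and Cnn1, a smooth muscle calponin, was lost. Oxtr, the oxytocin receptor of myoepithelial cells (ENSMUSG00000049112, chromosome 6, 112473683 to 112489943), had a percentile of 83.1 in BM7, and of 69.9 in BM6, 82.7 in BM4 and 92.4 in BM8. Krt17 was at 30.4 and Krt5 at 1.23 in BM7, and both lacked a promoter peak in every basal-like library, so these 2 calls rest on weak peaks of BM7. Cnn1 was at 6.57 in BM1 and 74.6 in BM5. Of the 9 ranked, 2 were lower in BM7 and 2 higher, against 13.7% and 14.5% of all ranked promoters. The lower ones were Krt14, which ranked 20.2, 21.4 and 7.09 in BM1, BM5 and BM7, and Myh11. Those called higher were Egfr (30.3, 24.9 and 62.8) and Snai2 (46.7, 46.9 and 54.7). Trp63, the defining factor of basal cells, had no promoter peak in any library. With equal numbers of peaks, 4 and 2 basal-like genes had a promoter peak in BM1 and BM5, and 8 and 6 in BM3 and BM7, the 1 cell type list in which both Lats1-CKO libraries lay above both WT libraries at that size. With all peaks the groups overlapped, and no test was made of these counts. At the equal size BM3 also had the most promoter peaks for the lists of Hippo genes, YAP and TAZ targets, TGF-beta and AP-1. It did not for others, such as the luminal and adhesion lists. Of its peaks 56.4% lay within 1 kb of a TSS, against 50.9%, 43.1% and 46.0% for BM1, BM5 and BM7 at that size. The part of this in the count of BM3 was not tested.

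Of 15 mesenchymal genes, 11, 9, 4 and 12 had a promoter peak in BM1, BM5, BM3 and BM7. Axl was the 1 gained and none was lost, against 3.33% and 0.639% of all protein-coding promoters. Of the 9 ranked, 1 was called higher and none lower, against 14.5% and 13.7% of all ranked promoters. The 1 was Fn1 (fibronectin), at 25.9, 16.8 and 37.0. Vim ranked 19.0, 22.2 and 19.1 and Zeb1 2.92, 8.04 and 1.86, both close to a WT library. Of 17 genes of collagens and matrix, 10, 7, 4 and 14 had a promoter peak, and 4 were gained in BM7, against 3.33% of all protein-coding promoters. These were Col5a2 (77.4), Col6a1 (54.4), Itgb6 (43.3) and Col17a1 (29.1), and in BM3 none of them had a peak. Col5a2, a fibrillar collagen, and Itgb6, an epithelial integrin, had no promoter peak in the basal-like libraries either.

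The genes the study names for the corepressor NCOR1 were studied by it in these cells. The paper describes some such genes as documented NCOR1 targets from a pathway database. Others it took from its own expression and accessibility data. Which of these 7 came from either source is not stated in the text used here. They are therefore not read as independent evidence of a direction. Of these 7, Oxtr was gained, against 3.33% of all protein-coding promoters. Ccna2 (99.4, 97.7 and 97.7), Sema6a (85.8, 94.7 and 91.3) and Fads1 (27.5, 48.9 and 26.2) were ranked in BM1, BM5 and BM7 and none was called. Pdgfrb, Col5a1 and Twist2 had no promoter peak in any luminal library. In the basal-like libraries, 6 of the 7 had a promoter peak in BM2, 6 in BM6 and 7 each in BM4 and BM8. Of 12 genes of NCOR and HDAC complexes, 12, 11, 8 and 12 had a promoter peak in BM1, BM5, BM3 and BM7. Ncor1 (25.4, 18.9 and 45.2), Hdac2 and Tbl1xr1 were called higher in BM7, 3 of 11 ranked genes against 14.5% of all. The median shift of the list was 2.79 in BM7 and, over the 8 genes in all 4 libraries, -7.37 in BM3, so no direction is given for the list.

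The remaining lists are those of AP-1, TGF-beta and Notch genes, of which 7, 12 and 5 were ranked. Over all ranked promoters, 13.7% were lower in BM7 and 14.5% higher. Of 9 AP-1 genes, 8, 7, 7 and 8 had a promoter peak in BM1, BM5, BM3 and BM7. Fosl1 was lower in BM7 (40.7, 48.9 and 22.5) and Junb higher (27.2, 23.0 and 45.4), and the median shift was 2.45. Of 13 genes of TGF-beta signaling, 13, 12, 10 and 13 had a promoter peak, with Tgfbr2 higher (31.3, 34.8 and 58.6) and Bmp4 lower (24.4, 34.8 and 0.60). Of 11 Notch genes, 10, 5, 3 and 9 had one, and Hes1 was lower (54.9, 50.1 and 14.1). Of these 3 lists no promoter was lost or gained.

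Markers of other cells were mostly closed. Of 9 fibroblast genes 2, 3, 0 and 2 had a promoter peak in BM1, BM5, BM3 and BM7, and Col3a1, Lum, Thy1 and Col1a2 had none in any luminal library. Of 8 immune genes it was 2, 3, 0 and 4, and Ptprc, Cd3e, Itgam and Adgre1 had no peak in any of the 4. The 2 immune genes ranked, Csf1r and Cd68, were both lower in BM7, against 13.7% of all ranked promoters. Of 6 endothelial genes it was 2, 0, 0 and 1, the last being Pecam1. Of 8 genes of tissues absent from the gland it was 1, 2, 0 and 1. The numbers in BM7 were within 1 of those in a WT library for each of these lists. The part of other cells in the differences was not tested.

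Distal regions were assigned to the protein-coding gene with the nearest TSS, without regard to whether they act on it. Of all 98385 distal regions, 3.44% were lost and 29.8% gained. The gene with the most gained distal regions was Sox9 (ENSMUSG00000000567, chromosome 11, 112782224 to 112787760), a factor of progenitor cells in the mammary gland and other epithelia, which stands alone in a gene desert. Of 153 distal regions nearest to it, 76 were gained and 3 lost. Of the 153, the WT libraries BM1 and BM5 had a peak in 66 and 46, and BM3 and BM7 in 12 and 129. Of the 76 gained regions, 60 lay upstream of the gene, as far as 821 kb, and 16 downstream, as far as 380 kb. They had a median percentile of 31.3 in BM7, and none had a peak in BM3. In basal-like cells, 8 of the 76 had a peak in BM2 and 2 in BM6 (WT), and 10 in BM4 and 34 in BM8 (Lats1-CKO), while 38 had none. AP-1 was found in 14 of them (18.4%). In the 250 kb upstream of the TSS, BM7 had 34 regions with a peak, BM1 18 and BM5 8.

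**Figure D4:**
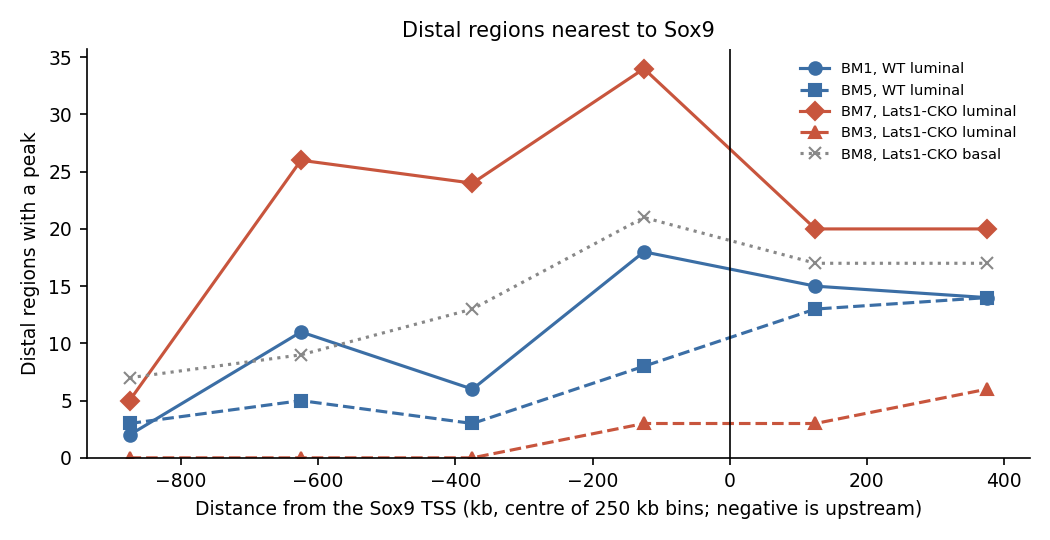
Number of distal regions nearest to Sox9 with a peak (vertical axis), by distance of their centre from the Sox9 TSS in bins of 250 kb (horizontal axis, negative upstream), for the 4 luminal libraries and the Lats1-CKO basal-like library BM8. BM7 has the most regions in each bin except the farthest upstream one, and BM3, with few peaks of any kind, has 12 in all.

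After Sox9, the genes with the most gained distal regions were Tenm4 (34 of 92), Tns3 (28 of 64), Zbtb20 (28 of 61), and Ank3 and Efna5 (27 of 68 and 27 of 91). The share of 49.7% at Sox9 was the highest of these 6, and that of Efna5, 29.7%, was close to that over all distal regions. Fewer lost regions lay near any single gene. Pappa, which encodes a protease that cleaves IGF-binding proteins, and St3gal1, a sialyltransferase, had 7 each, of 45 and 36. Dio3, Dlg2, Msx2, Nr2f2 and Pde4d had 6 each, of 26, 62, 23, 62 and 93. Msx2, a homeobox gene of the mammary gland, thus had 26.1% of its distal regions lost and 8.70% gained. It had a peak in 18 and 16 of the 23 in WT (BM1, BM5) and in 3 and 10 in Lats1-CKO (BM3, BM7).

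Distal regions nearest to the genes of the lists were near the background in most cases. At luminal genes 4.86% of 288 distal regions were lost and 28.8% gained, at basal-like genes 4.0% and 36.0% of 150, and at Hippo genes 7.31% and 24.7% of 219. The study's NCOR1 genes had 42 of 92 distal regions gained (45.7%), with the same reserve about how the list was picked. Mesenchymal genes had 6.27% of 271 lost and 31.0% gained. Single regions of high score included a lost one at chr15:52948294-52948605, 159 kb downstream of the TSS of Ext1, with percentiles of 96.7 in BM1 and 97.2 in BM5, and one in an intron, 92.7 kb downstream of the TSS of Adam12, with 88.8 and 94.1. All 4 basal-like libraries had the first, from 53.4 in BM6 to 98.2 in BM2, and the WT ones alone had the second. Among the gained ones were a region in an intron, 34.0 kb downstream of the TSS of Sdk2 (99.8 in BM7), one in an exon 6.07 kb from the TSS of Tedc1 (99.6), and one 24.5 kb upstream of the TSS of Cnot7 (98.4), which had no peak in any basal-like library. The gained regions with the highest scores in both BM3 and BM7 were nearest to C330021F23Rik (99.9 in BM3 and 67.4 in BM7), Exoc6b (62.9 and 87.0), Acox2 (62.9 and 89.7), Ubn1 (65.7 and 60.5) and Nenf (56.4 and 54.1).

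Along the genome, windows of 1 Mb with at least 20 merged regions were compared. The highest shares of lost regions were 6 of 28 from 91 to 92 Mb of chromosome 7, 7 of 34 from 13 to 14 Mb of chromosome 5, 4 of 23 from 22 to 23 Mb of chromosome 5, 8 of 46 from 67 to 68 Mb of chromosome 15, and 4 of 24 from 4 to 5 Mb of chromosome 1. The highest shares of gained regions were 15 of 21 from 141 to 142 Mb of chromosome 6, 16 of 24 from 34 to 35 Mb of chromosome 11, 29 of 45 from 77 to 78 Mb of chromosome 14, 22 of 36 from 161 to 162 Mb of chromosome X and 14 of 24 from 30 to 31 Mb of chromosome 18. The window of chromosome 6 had a peak of BM7 in 18 regions and of BM8 in 17, against 5 of BM4, 4 and 2 of BM1 and BM5, and 1 and 2 of BM2 and BM6. By chromosome, the share of gained regions was between 24.6% (chromosomes 5 and 14) and 32.8% (chromosome 12), and that of lost regions between 2.32% (chromosome 16) and 3.81% (chromosome 3).

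The basal-like libraries, which the rule did not use, served to ask whether the luminal differences recurred with genotype. Of the 3894 lost regions, 71.7% had a peak in BM2 and 23.1% in BM6 (WT), and 45.8% in BM4 and 38.2% in BM8 (Lats1-CKO). The WT libraries thus lay on either side of the Lats1-CKO libraries. Of the 34316 gained regions, 14.6% had a peak in BM2 and 11.8% in BM6, and 24.8% in BM4 and 47.2% in BM8. With all peaks both Lats1-CKO libraries were thus above both WT libraries. Over all merged regions the shares were 48.0%, 35.8%, 45.7% and 56.0% in BM2, BM6, BM4 and BM8. To set the 2 kinds against each other within a library, the log2 of the gained over the lost share was taken. This log2 ratio was -2.30 for BM2 and -0.97 for BM6, and -0.89 for BM4 and 0.31 for BM8. WT libraries averaged -1.63 ± 0.94 (SD, n = 2) and Lats1-CKO libraries -0.29 ± 0.84 (SD, n = 2), which differ by 1.34. With all peaks the groups did not overlap, but BM6 and BM4 were close. The difference had the smallest p that the test used can give here (two-sided exact permutation test, p = 0.333). The difference was 1.37 in distal regions. It was 0.25 when lost and gained regions were defined without BM1, 0.53 without BM7, 0.68 without BM2 and 0.75 without BM8, and it was 0.22 with equal numbers of luminal peaks and whole basal-like lists.

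The recurrence differed between the libraries. Of the gained regions, 2819 (8.21%) had a peak in both BM4 and BM8 and in neither BM2 nor BM6, against 4.59% of all merged regions, whereas 111 (0.323%) had the reverse pattern, against 1.18%. Of the lost regions, 119 (3.06%) had a peak in BM2 and BM6 and in neither BM4 nor BM8, and 125 (3.21%) the reverse. A further 40.4% of gained and 14.2% of lost regions had no basal-like peak. For promoters, 87 and 58 of the 139 lost ones had a peak in BM2 and BM6, and 78 and 42 in BM4 and BM8, so the groups overlapped. Of the 725 gained promoters, 164 and 137 had one in BM2 and BM6 and 310 and 397 in BM4 and BM8. BM8 and BM4 had more peaks than BM2 and BM6, and the part of this in the higher shares was not tested.

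**Figure D5:**
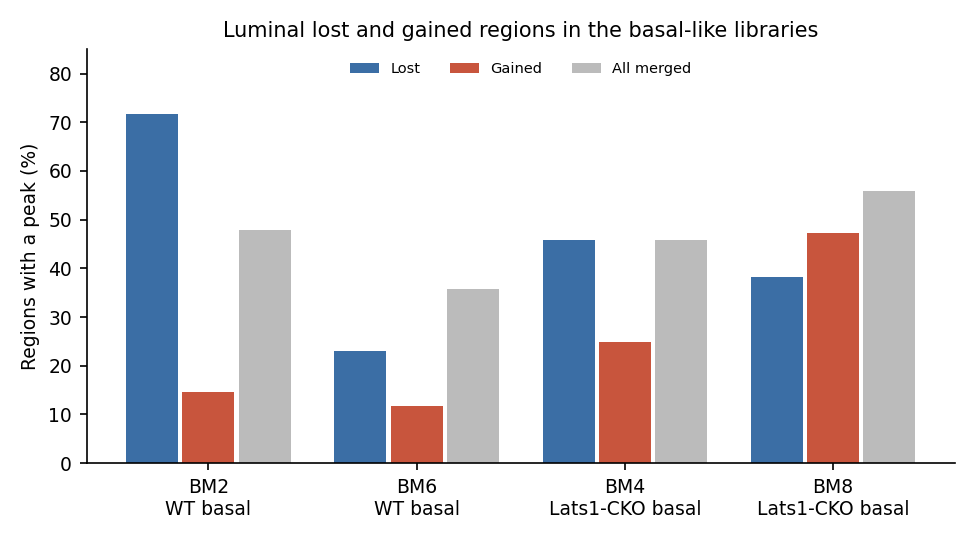
Percent of lost (blue), gained (red) and all merged (grey) luminal regions that had a peak in each basal-like library, none of which was used to define them. With all peaks, gained regions are at 14.6% and 11.8% in the WT libraries BM2 and BM6 and at 24.8% and 47.2% in the Lats1-CKO libraries BM4 and BM8, while lost regions have no such order.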

How the data were processed

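ATAC-seq was performed by the authors on sorted, briefly expanded cells, and the peak lists of 4 luminal and 4 basal-like libraries were used. According to the methods, cutadapt removed adapters, bowtie 1.0.0 placed the reads at unique sites of mm10 (GRCm38), and the reads were cleared of mitochondrial reads, duplicates and long fragments, and peaks were called with MACS2. The submitters' processing notes name Picard 2.3.0 and MACS2 2.1.1.20160309, and the methods name another MACS2 version; its options are not given in the sources used here. Peaks on the ENCODE blacklist were removed, and each library was called separately. The score that the authors deposited with each peak is not normalized, and whether it derives from a p-value or a q-value is not stated. The lists hold no read counts, so the DiffBind comparison of the methods was not made and the counting error of reads in a region cannot be given. A Lats1-CKO luminal replicate was discarded by the authors for quality control when replicates were combined. It is not named in the text, and both were kept here, so 1 of the 2 Lats1-CKO luminal libraries used is one the authors set aside.

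Peaks were merged when they overlapped or touched, and 1 bp of a peak counted as presence. Genes were assigned by TSSs of GENCODE M21 within 1 kb, and motifs were searched in the central 200 bp of the GRCm38.p6 sequence, which is not that of FBV/N. The tools were pysam 0.24.0, scipy 1.17.1, pandas 2.3.3 and numpy 2.4.6 under Python 3.11.15, and the definitions were tested on simulated peak lists. The list symbols Ctgf and Cyr61 were matched as Ccn2 and Ccn1 through RefSeq synonyms. The regions, gene lists, motifs and tests were chosen with earlier results of these data known. The genes named are Lats1, sorting markers and keratins, the study's NCOR1 genes, list members with a lost or gained promoter, the 10 promoters and 5 distal regions of each kind with the highest scores, the 5 genes with the most lost and gained distal regions (ties included), and the 5 windows with the highest shares. The ranks among shared promoters and regions, the motif shares by library and the genes named from ranks were added after the data had been seen. Alternatives were equal numbers of peaks, peaks above the median score, a larger overlap, merging within 100 bp, autosomes only, other TSS windows, protein-coding TSSs, a wider motif window, and each library left out in turn. Some items of the gene lists are not reported here.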

Additional observations from a re-analysis of the deposited data

How the results depend on the processing

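No paired analysis was possible because the labels give the libraries no replicate numbers that groups share, and the library numbers, like the replicate numbers given here in order of deposit, only name them. At 14753 peaks in each library, 1060 regions were lost and 3688 gained, and 22.7% and 23.0% of them lay within 1 kb of a TSS. With BM1, BM5 and BM7 cut to 58783 peaks it was 5846 and 14538 regions, 16.5% and 15.1% near a TSS, and 321 lost and 362 gained promoters. With peaks above the median score of each library, 14997 regions were gained, 225 promoters were lost, and 19.5% of lost and 16.9% of gained regions lay near a TSS. Where peaks had to cover at least 50% of a region, the shares near a TSS were 14.9% and 15.2%. Merging within 100 bp gave 14.1% for gained regions, and TSSs of protein-coding genes alone gave 10.4% and 11.5%. Requiring a peak in both BM3 and BM7 left 142 gained regions and 7 gained promoters. AP-1 was in 60.8% of lost and 23.9% of gained distal regions in the central 400 bp, and in 64.6% and 24.9% with equal numbers of peaks, so lost regions were above gained ones each time. The median promoter shift of the adhesion list was -5.47 on the percentile scale of the whole library.

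With 1 luminal library left out at a time, lost regions ranged from 4022 (without BM3) to 25767 (without BM7), with 20070 without BM1 and 17292 without BM5. Gained regions ranged from 889 (without BM7) to 55496 (without BM1), lost promoters from 156 to 3359 and gained promoters from 24 to 2254, so these counts rest on BM1, BM5 and BM7. The share near a TSS was from 10.3% to 23.4% for lost and from 14.7% to 19.6% for gained regions. The difference of 1.34 between basal-like genotypes was from 0.25 (without BM1) to 2.00 (without BM6) when 1 library was left out, and 0.22 with equal numbers of luminal peaks and whole basal-like lists. It kept its sign in every setting run. The AP-1 difference of -11.5 points was from -12.9 to -10.0 when 1 luminal library was left out and -1.67 with all peaks. The luminal median shift was -6.01 with BM3 in place of BM7. For the counts of list promoters, 12 of 96 alternative values moved by more than the spread of the libraries, and all 18 shares of unshared peaks moved with equal numbers. Depth limits every absent peak, and with 2 libraries in each group the exact permutation test could not pass 0.05.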
